A study of Mus musculus with 10 samples.

Results

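The genes described here are the 9 receptor genes of the neurotrophin and GDNF families *Ntrk2*, *Ntrk3*, *Ngfr*, *Sort1*, *Ret*, *Gfra1*, *Gfra2*, *Gfra3* and *Gfra4*. They were chosen by gene symbol, as rows of the read count files, and make up 9 of the 55414 Ensembl genes listed in each library. All 9 passed the filter on low counts and were among the 17490 genes tested. Bulk RNA-sequencing was done on dorsal root ganglia (DRG) of 10 mouse embryos at E18.5. The 5 control embryos were *Dach1* flox/flox without Cre, and the 5 *WD1* cKO embryos were *Wnt1* Cre/+ and *Dach1* flox/flox. Both groups therefore carry the floxed alleles, which were kept on a mixed C57Bl/6J and CD1 background. *Wnt1*-driven Cre acts in the neural crest, so *Dach1* is deleted in the neurons and in the glia of the DRG, and the RNA of both was sequenced together. In such bulk samples, fewer cells of a type and less RNA per cell cannot be told apart.

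DRG neurons depend during development on growth factors made by their targets, and the receptor that a neuron carries goes with its type. Neurotrophins bind the Trk receptor tyrosine kinases, and every neurotrophin also binds p75, which pairs with sortilin to bind the unprocessed precursors. Ligands of the GDNF family bind a GFRα co-receptor that is anchored at the cell surface without an intracellular domain, and the pair then activates the shared receptor tyrosine kinase RET. TrkB is known for Aδ-LTMR and part of the Aβ-LTMR, which are classes of low-threshold mechanoreceptors. TrkC is known for proprioceptors and part of the Aβ-LTMR, and RET for some A-LTMR and for nonpeptidergic nociceptors. The comparison asks whether these genes, used to tell DRG neuron types apart, differ in level after early loss of *Dach1*.

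Reads assigned to genes totalled 20465132 to 27528784 per control library and 19757596 to 34796562 per *WD1* cKO library. *Dach1*, the deleted gene, was at 35.0 to 41.6 CPM in control and at 19.1 to 20.7 CPM in *WD1* cKO libraries, where CPM are counts scaled to a common library size by TMM. Its log2 fold change was -0.92 (adjusted p = 5.48e-06, quasi-likelihood test of edgeR, Benjamini-Hochberg adjustment). The floxed allele spans 1 exon, while counts per gene take in every exon, so the remaining counts do not measure how complete the deletion was. In the study, staining found Dach1 protein lost in *WD1* cKO DRG. The titles and the genotype field of the labels name the groups the other way round, and the titles, with which *Dach1* goes, were followed. All 7 genes of a pan-neuronal list and all 8 of a glial list were tested, at a summed level of 5935 to 6411 CPM and 841 to 1048 CPM per library. Control replicate 3 stood apart. Its spinal cord genes summed to 15.2 CPM, against 0.0735 to 0.483 CPM in the other control libraries and up to 1.32 CPM in *WD1* cKO libraries, and all 5 of them were at 0 in at least 1 other library. Several fold changes and ratios are given with and without it. The labels name no litter or batch, so p-values measure the spread between these libraries, part of which may be technical.

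The receptors spanned a wide range of levels. Per kb of merged exon, *Ngfr*, which encodes p75, was the highest, at 354 ± 8.29 CPM per kb (SD, n = 5) in control and 333 ± 11.1 CPM per kb (SD, n = 5) in *WD1* cKO embryos. That is above 99.8% of the 17449 tested genes with a known length. *Ret* was next, at 110.3 ± 11.4 and 117 ± 5.48 CPM per kb in control and *WD1* cKO embryos (SD, n = 5 each). *Ngfr* was 3.03 times as high as *Ret* per kb over all libraries.

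The GFRα co-receptors lay far apart from each other. *Gfra3*, whose product binds artemin, was at 68.7 CPM per kb over the 10 libraries, and *Gfra2*, whose product binds neurturin, at 28.6. *Sort1*, encoding sortilin, was at 19.2 CPM per kb. *Gfra1*, encoding the co-receptor for GDNF itself, was at 10.8, and *Gfra4*, encoding that for persephin, was at 6.22, the lowest per kb of merged exon and above 58.1% of the tested genes. Per kb of the APPRIS principal transcript, *Gfra4* was at 14.8 and *Gfra1*, at 12.7, was the lowest. In all 10 libraries *Ngfr*, *Ret*, *Gfra3*, *Gfra2* and *Sort1* came in this order, above the other receptors, and *Gfra4* was last, per kb of merged exon.

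*Ntrk2*, encoding TrkB, and *Ntrk3*, encoding TrkC, were both at 10.4 CPM per kb. Their order with *Gfra1* is not set: *Gfra1* was above *Ntrk2* in 5 of 10 libraries, *Ntrk2* was above *Ntrk3* in 5 of 10, and the ranges overlapped. The order depends on the length used. The merged exons span 19292 bases for *Ntrk2* and 30170 for *Ntrk3*, while their longest transcripts hold 8744 and 19703 bases. Per kb of the longest transcript, *Ntrk2* was at 23.1 and *Ntrk3* at 15.9 CPM, the fifth and the seventh of the 9 levels. Both genes make full-length and truncated receptors, and counts per gene do not tell them apart.

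**Figure D1:**
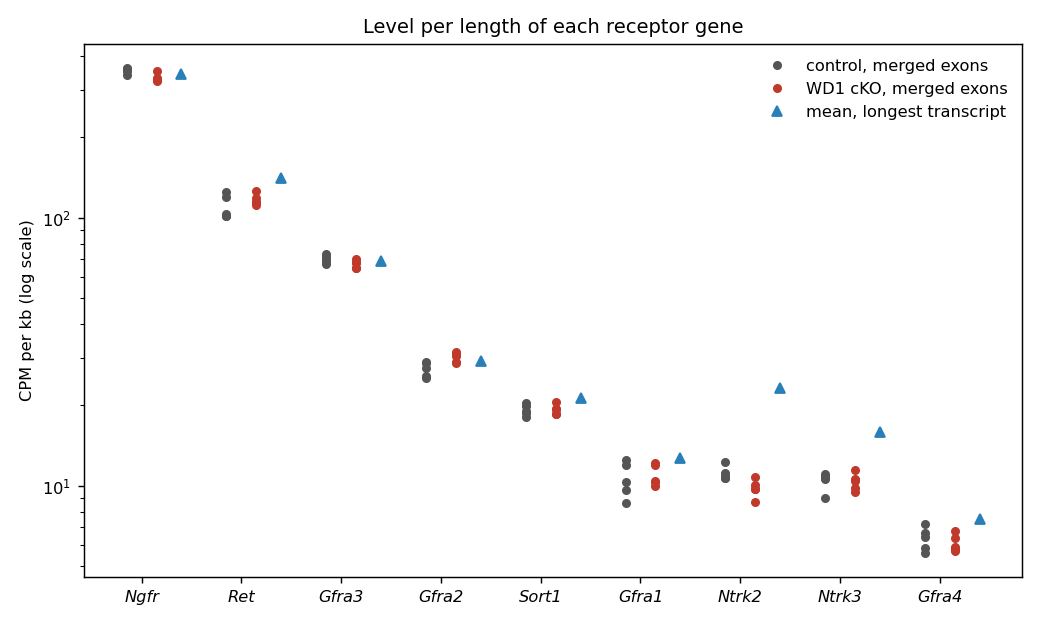
Level of each receptor gene per kb of merged exon (CPM per kb, log axis), with each control library in grey and each *WD1* cKO library in red. Blue triangles give the mean over all libraries per kb of the longest transcript. *Ngfr* and *Ret* are the highest, and the triangles of *Ntrk2* and *Ntrk3* are at 23.1 and 15.9, above their points near 10.4.

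Between the genotypes, the receptors differed little. By the quasi-likelihood test of edgeR with Benjamini-Hochberg adjustment, no receptor was called at an adjusted p-value under 0.05, as 0.0400% of the genes tested were. In this fit no receptor passed the study's cut-off, an unadjusted p-value under 0.005 and a log2 fold change beyond 0.15 in either direction, which 0.383% of the genes tested passed. With DESeq2's Wald test, the replicate number as a block or robust dispersions 1 receptor, *Ntrk2*, passed it, and without the filter on low counts 2 did, *Ntrk2* and *Gfra2*. Over all genes, 78 passed it with the Wald test, 133 with the block and 128 without the filter, against 67 in the main test. At an unadjusted p-value under 0.05, which 4.50% of the genes tested reached, there were 3 of the 9 receptors, *Ntrk2* and *Ngfr* lower and *Gfra2* higher in *WD1* cKO embryos. No receptor had groups that did not overlap, as 1.06% of the genes tested had (0.566% lower and 0.497% higher in *WD1* cKO embryos). The log2 fold changes of the 9 receptors ranged from -0.18 to 0.14, with a median of -0.016, beside a median of 0.00022 over all genes tested. The median absolute log2 fold change was 0.057 for the receptors and 0.053 for all genes tested.

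**Figure D2:**
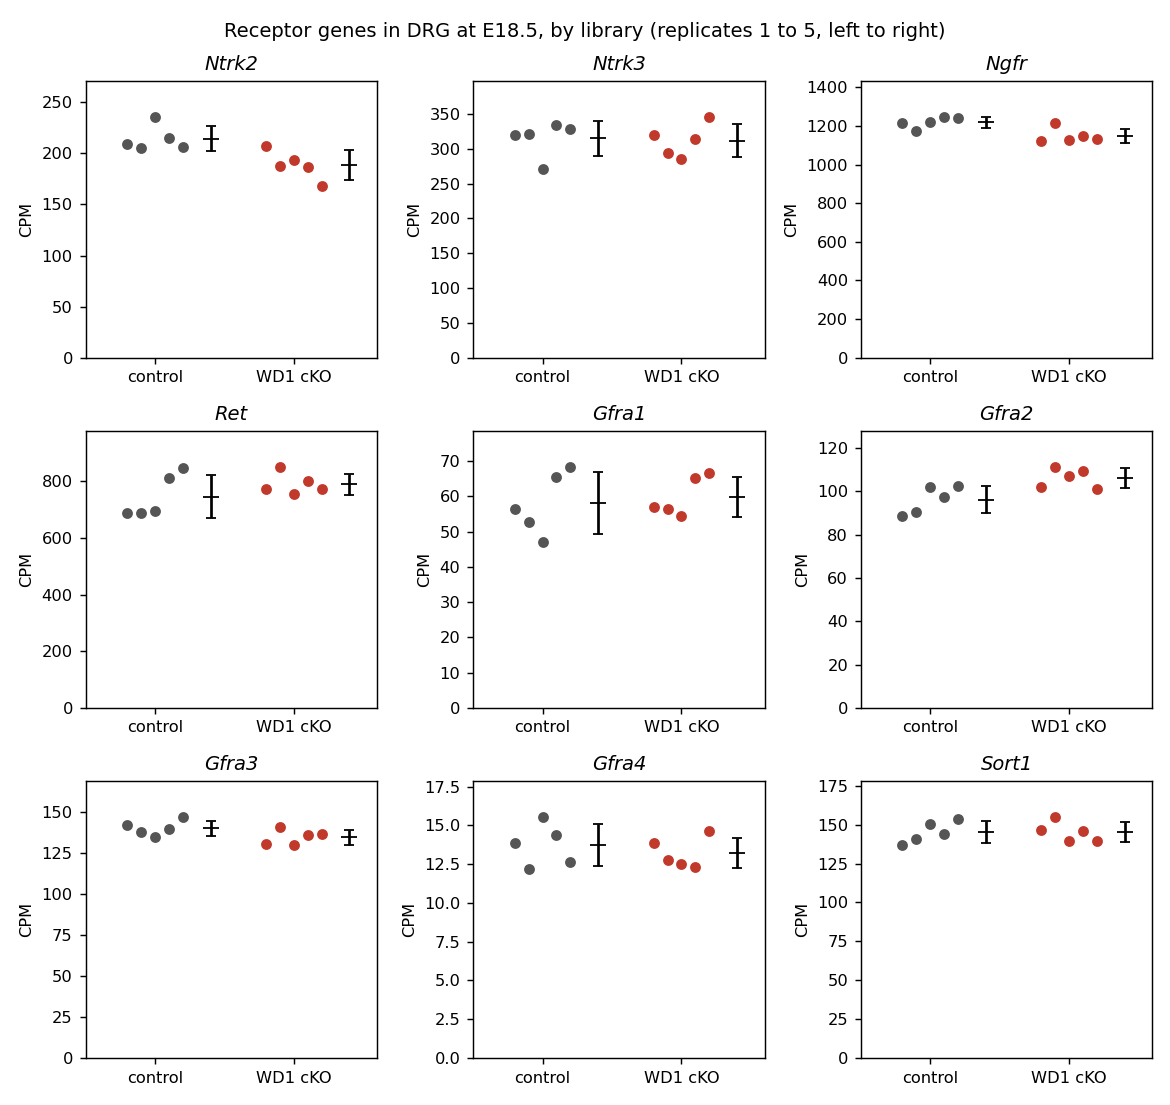
CPM of the 9 receptor genes in each library, with control in grey and *WD1* cKO in red, replicates 1 to 5 from left to right and mean ± SD (n = 5) beside them. The groups overlap in every panel, and the points of *Ntrk2* and *Ngfr* sit lower and those of *Gfra2* higher in *WD1* cKO embryos.

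*Ntrk2* (ENSMUSG00000055254, chromosome 13) was at 209, 206, 236, 215 and 207 CPM in control replicates 1 to 5 and at 208, 188, 194, 187 and 168 CPM in *WD1* cKO replicates 1 to 5. In this gene, 4 of the 5 *WD1* cKO libraries were below every control library, and *WD1* cKO replicate 1 lay within the control range. The means were 214 ± 12.4 CPM in control and 189 ± 14.4 CPM in *WD1* cKO embryos (SD, n = 5 each), a log2 fold change of -0.18 (standard error 0.056, 95% interval -0.30 to -0.063). In edgeR's quasi-likelihood test the unadjusted p-value was 0.00611 and the adjusted p-value 1.00. The exact permutation test of mean log2 CPM gave a two-sided p of 0.0238, where the smallest p for 5 against 5 is 0.00794. Control replicate 3 had the highest level of *Ntrk2*, and without it the log2 fold change was -0.15 (adjusted p = 1.00 in the same edgeR test). The study picked *Ntrk2* from these libraries as lower in *WD1* cKO embryos, so its direction is not independent evidence. In stained DRG sections, the study found no difference between *WD1* cKO and control in counts of neurons with general subtype markers. Those are counts of cells by protein, not RNA levels. Of 5 A-LTMR marker genes, 2 were lower and 3 higher in *WD1* cKO embryos. The adjusted test called 1 of them, *Calb2*, encoding calretinin, which was lower (log2 fold change -2.06), and *Shox2* (0.30) and *Mafa* (0.34) had an unadjusted p-value under 0.05. The other lower gene, *Colq*, had only 9 to 63 counts per library. The study also picked *Calb2* and *Shox2* from these libraries. By staining, it found a smaller share of calretinin cells and a larger share of Shox2 cells among TrkB neurons of *WD1* cKO embryos. The part of these marker genes in the level of *Ntrk2* was not tested.

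*Ntrk3* (ENSMUSG00000059146, chromosome 7) was at 320.0, 322, 271, 335 and 328 CPM in control replicates 1 to 5 and at 319, 294, 285, 313 and 345 CPM in *WD1* cKO replicates 1 to 5. The groups overlapped widely, and the lowest of the 10 values was that of control replicate 3. The means were 315 ± 25.0 and 312 ± 23.3 CPM (SD, n = 5 each), with a log2 fold change of -0.016 (95% interval -0.15 to 0.12, unadjusted p = 0.800 and adjusted p = 1.00 in edgeR's quasi-likelihood test). Without control replicate 3 it was -0.065 (adjusted p = 1.00 in the same edgeR test).

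*Ngfr* (ENSMUSG00000000120, chromosome 11) was at 1217, 1174, 1223, 1246 and 1242 CPM in control replicates 1 to 5 and at 1120.1, 1214, 1126, 1149.6 and 1134 CPM in *WD1* cKO replicates 1 to 5. Here too 4 of the 5 *WD1* cKO libraries were below every control library, and replicate 2 was the exception. The difference was small, from 1221 ± 28.6 to 1149 ± 38.1 CPM (SD, n = 5 each), a log2 fold change of -0.087 (95% interval -0.16 to -0.011). The unadjusted p-value was 0.0277 and the adjusted p-value 1.00 in edgeR's quasi-likelihood test, with p = 0.0159 in the exact permutation test, two-sided. Of the level per kb summed over the 9 receptors, *Ngfr* made up 57.2 ± 1.09% in control and 55.2 ± 0.307% in *WD1* cKO embryos (SD, n = 5 each).

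*Sort1* (ENSMUSG00000068747, chromosome 3), the partner of p75 for precursor neurotrophins, was at 137 to 154 CPM in control libraries, with a median of 144, and at 139.8 to 155 CPM in *WD1* cKO libraries, with a median of 146. The groups covered nearly the same range. Its means were 145 ± 6.94 and 145 ± 6.17 CPM (SD, n = 5 each), with a 95% interval of the log2 fold change from -0.088 to 0.088 (unadjusted p = 0.996 and adjusted p = 1.00 in edgeR's quasi-likelihood test). *Gm12523*, on the opposite strand, shares 4.5% of its exon bases.

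*Ret* (ENSMUSG00000030110, chromosome 6) was at 687, 688, 697, 811 and 847 CPM in control replicates 1 to 5 and at 775, 850.1, 755, 799.8 and 772 CPM in *WD1* cKO replicates 1 to 5. The control values formed a lower set, replicates 1 to 3, and a higher set, replicates 4 and 5, and the *WD1* cKO values lay between 755 and 850.1 in both. Over all libraries the log2 fold change was 0.083 (95% interval -0.057 to 0.22, unadjusted p = 0.221 and adjusted p = 1.00 in edgeR's quasi-likelihood test). In replicates 1 to 3 alone it was 0.20 (unadjusted p = 0.00408, adjusted p = 0.922 in the same test), and in replicates 4 and 5 alone -0.076 (unadjusted p = 0.165, adjusted p = 0.816). The difference between these subsets, taken as an interaction in a single edgeR fit after the values were seen, was 0.28 (standard error 0.076, unadjusted p = 0.00373, adjusted p = 1.00), so it did not pass over all genes.

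The blood genes moved with the same replicate numbers. The 5 listed genes, for globins and heme synthesis and all above 0 in every library, summed to 1070 to 2461 CPM in control replicates 1 to 3 and to 155 and 183 CPM in control replicates 4 and 5. In *WD1* cKO replicates they summed to 509 to 1133 CPM in replicates 1 to 3 and to 242 and 189 CPM in replicates 4 and 5. Their part in the values of *Ret* was not tested.

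*Gfra2* (ENSMUSG00000022103, chromosome 14) was at 88.8, 90.5, 102, 97.3 and 103 CPM in control replicates 1 to 5 and at 102, 111, 107, 109.5 and 101 CPM in *WD1* cKO replicates 1 to 5. Of the *WD1* cKO libraries, 3 were above every control library, and replicates 1 and 5 lay within the control range. The means were 96.2 ± 6.36 and 106 ± 4.48 CPM (SD, n = 5 each), a log2 fold change of 0.14 (standard error 0.047, 95% interval 0.039 to 0.24). The unadjusted p-value was 0.0107 and the adjusted p-value 1.00 in edgeR's quasi-likelihood test, with p = 0.0397 in the exact permutation test, two-sided. Without control replicate 3 the log2 fold change was 0.16 (adjusted p = 1.00 in the same edgeR test).

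*Gfra1* (ENSMUSG00000025089, chromosome 19) was at 56.5, 52.7, 47.1, 65.4 and 68.2 CPM in control replicates 1 to 5 and at 56.8, 56.3, 54.4, 65.3 and 66.6 CPM in *WD1* cKO replicates 1 to 5. In both genotypes replicates 4 and 5 were above replicates 1 to 3, with no overlap. The genotypes themselves overlapped, at 58.0 ± 8.78 and 59.9 ± 5.64 CPM (SD, n = 5 each), and the log2 fold change was 0.045 (95% interval -0.17 to 0.26, unadjusted p = 0.654 and adjusted p = 1.00 in edgeR's quasi-likelihood test). Without control replicate 3, the lowest library, it was -0.021 (adjusted p = 1.00 in the same edgeR test). A gene on the opposite strand, *Gm16277*, shares 7.6% of the exon bases of *Gfra1*. The strand setting of the counting is not given in the sources used here, so that reads of either could be counted for *Gfra1*.

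*Gfra3* (ENSMUSG00000024366, chromosome 18) ranged from 134 to 147 CPM in control libraries and from 129.8 to 140.4 CPM in *WD1* cKO libraries, with 2 of the 5 *WD1* cKO libraries below every control library. Its means were 139.9 ± 4.60 and 135 ± 4.52 CPM (SD, n = 5 each), a log2 fold change of -0.057 (95% interval -0.13 to 0.017, unadjusted p = 0.118 and adjusted p = 1.00 in edgeR's quasi-likelihood test). *Gfra4* (ENSMUSG00000027316, chromosome 2) was the receptor with the fewest reads, from 243 to 508 per library. It was at 13.7 ± 1.35 CPM in control and 13.2 ± 0.982 CPM in *WD1* cKO embryos (SD, n = 5 each), with a log2 fold change of -0.049 (95% interval -0.22 to 0.12, unadjusted p = 0.540 and adjusted p = 1.00 in the same test).

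**Figure D3:**
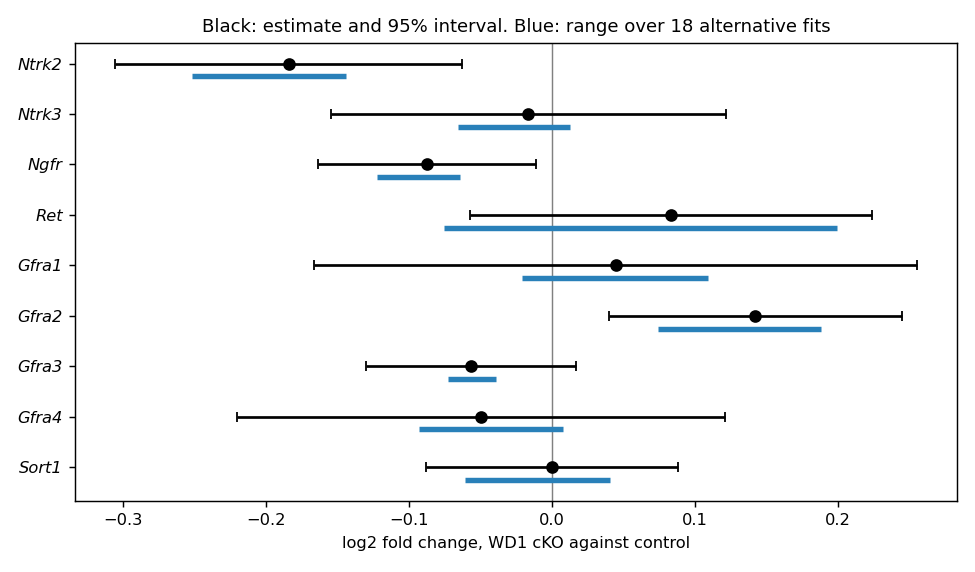
Log2 fold change of each receptor gene, *WD1* cKO against control. Black points and bars give the edgeR estimate and its 95% interval, and blue lines the range over 18 alternative fits. The intervals of *Ntrk2* (-0.30 to -0.063), *Ngfr* (-0.16 to -0.011) and *Gfra2* (0.039 to 0.24) do not cross 0, and none of these genes passed the adjusted test.

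The ratio of a pair of receptors within a library does not depend on how libraries are scaled. For *Ntrk2* to *Ret*, the ratio of read counts was 0.305, 0.299, 0.338, 0.265 and 0.244 in control replicates 1 to 5 and 0.268, 0.221, 0.257, 0.233 and 0.217 in *WD1* cKO replicates 1 to 5. Of the *WD1* cKO libraries, 3 were below every control library. The log2 difference was -0.27 (exact permutation test, two-sided p = 0.0397, adjusted p = 0.119 over 3 pairs), and it was -0.22 (p = 0.0794) without control replicate 3. Between *Ntrk2* and *Ntrk3* the mean ratio was 0.687 in control and 0.610 in *WD1* cKO embryos, with a log2 difference of -0.17 (exact permutation test, two-sided p = 0.254), and -0.082 (p = 0.508) without control replicate 3. Between *Ntrk3* and *Ret* the log2 difference was -0.10 (exact permutation test, two-sided p = 0.254), and -0.13 (p = 0.175) without control replicate 3. No pair passed the adjusted test.

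**Figure D4:**
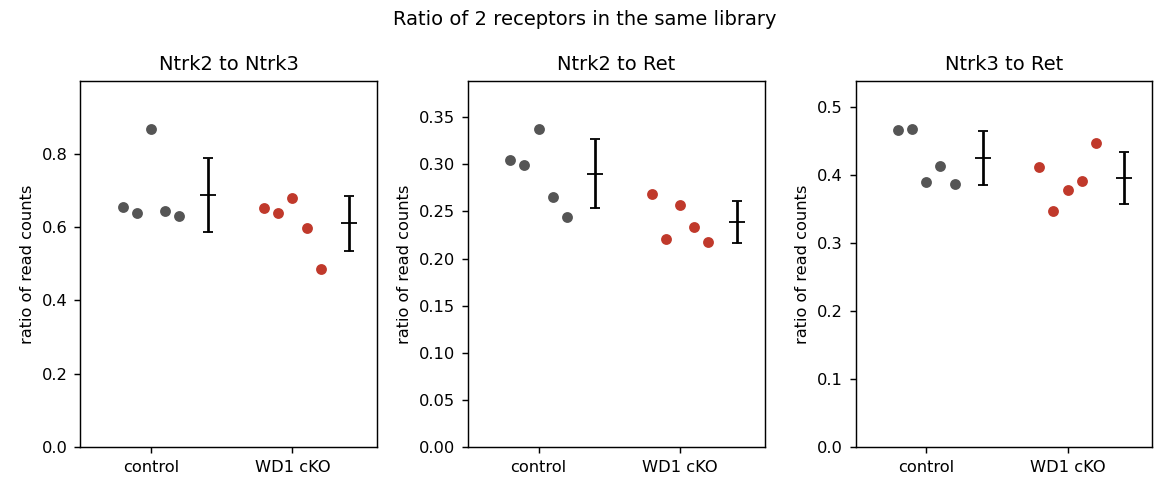
Ratio of read counts of 2 receptor genes in the same library, with control in grey, *WD1* cKO in red and mean ± SD (n = 5) beside the points. The control libraries hold an *Ntrk2* to *Ret* ratio of 0.244 to 0.338, and the *WD1* cKO libraries 0.217 to 0.268.

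Within the genotypes the receptors did not vary as a block. Correlations of the log2 deviations from the group means, over the same 10 libraries that share their depth and scaling, ranged from -0.67 for *Ntrk2* with *Ntrk3* to 0.82 for *Gfra2* with *Sort1*. *Ntrk3* and *Gfra1* varied together (r = 0.80), as did *Ngfr* and *Ret* (r = 0.72). *Ret* was positively correlated with *Gfra1* (r = 0.68), *Gfra3* (r = 0.65) and *Gfra2* (r = 0.63), and its correlation with *Gfra4* was -0.19. These are descriptions over 10 libraries, without a test.

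The genes most like a receptor in this pattern, among 12342 genes with a mean of at least 5 CPM, were *Polr3g* for *Ntrk3* (r = 0.98), *H6pd* for *Ntrk2* (r = 0.94) and *Myg1* for *Ngfr* (r = 0.92). For *Ret* it was *Gabbr2*, a subunit of the GABA-B receptor (r = 0.97), and for *Gfra1* it was *Galnt5* (r = 0.98). The corresponding genes were *Uggt1* for *Gfra2* (r = 0.97), *Gm1043* for *Gfra3* (r = 0.93), *Alad* for *Gfra4* (r = 0.91) and *Rtn1* for *Sort1* (r = 0.92). Each is the top of a search over 12342 genes in 10 libraries, which by itself picks high values. None of these pairs was tested.

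Some marker genes of neuron types varied with the receptors, and others did not. For *Ntrk2* the median r was 0.092 with the 5 A-LTMR markers (from -0.28 to 0.55). With the 4 genes listed as nonpeptidergic its median r was 0.51. The values were -0.20 for *Mrgprd*, 0.33 for *P2rx3*, 0.69 for *Runx1* and 0.79 for *Prdm12*. The study takes Prdm12 as a general marker of developing nociceptors, so this list is not specific to nonpeptidergic neurons. For *Ret* the median r with the 5 A-LTMR markers was -0.55 (from -0.68 to 0.69). Of these markers, *Colq* (r = -0.28 with *Ntrk2* and 0.69 with *Ret*) had only 9 to 63 counts per library, and *Calb2* 18 to 109. Of the 4 proprioceptor markers, *Pvalb* (parvalbumin, r = 0.93) and the transcription factor *Etv1* (r = 0.88) were strongly correlated with *Ntrk3*. The other markers of this list, *Runx3* (r = 0.27) and *Whrn* (r = -0.099), were not. With *Ntrk3*, pan-neuronal genes ranged from -0.63 to 0.86 and glial genes from -0.83 to 0.85. *Pvalb* was at 36.9 CPM in control replicate 3 and at 53.3 to 59.6 CPM in the other control libraries, and at 80.9 CPM in *WD1* cKO replicate 5, where *Ntrk3* was highest. With *Ntrk2* the correlation of *Pvalb* was -0.85. *Ret* was positively correlated with all 4 genes listed as peptidergic (r from 0.53 to 0.83), as was *Gfra1* (r from 0.67 to 0.94). The same held for *Ntrk3*, *Ngfr*, *Gfra2* and *Gfra3* (r from 0.18 to 0.69), so it was not particular to *Ret* and *Gfra1*. The 4 listed genes were all negative with *Ntrk2*, and signs were mixed for *Gfra4* and *Sort1*. Of these genes, *Scn10a* gave the highest r with *Ret* (0.83). The study describes its product as specific to nociceptors, so this list is not specific to peptidergic neurons. With *Gfra1*, the 8 glial genes ranged from -0.87 to 0.96 and the 7 pan-neuronal genes from -0.91 to 0.94. The 4 genes listed as nonpeptidergic split for *Ret*, with *Mrgprd* at r = 0.84, *P2rx3* at 0.45, *Runx1* at -0.44 and *Prdm12* at -0.30.

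Genes of other tissues varied too. All 6 connective tissue genes were negatively correlated with *Ntrk3* (r from -0.97 for *Col1a2* to -0.16), and their sum was 5827 CPM in control replicate 3 against 4186 to 4527 CPM in the other control libraries and 4629 to 5438 CPM in *WD1* cKO libraries. None of these 6 genes was at 0 in any library. All 5 blood genes were negatively correlated with *Ret* (r from -0.74 to -0.29) and with *Gfra1* (r from -0.81 to -0.50). They were also all negative with *Ntrk3* (r from -0.55 to -0.33) and *Gfra3* (r from -0.39 to -0.20), and all positive with *Ntrk2* (r from 0.29 to 0.59). The part of these tissues in the receptor values was not tested.

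**Figure D5:**
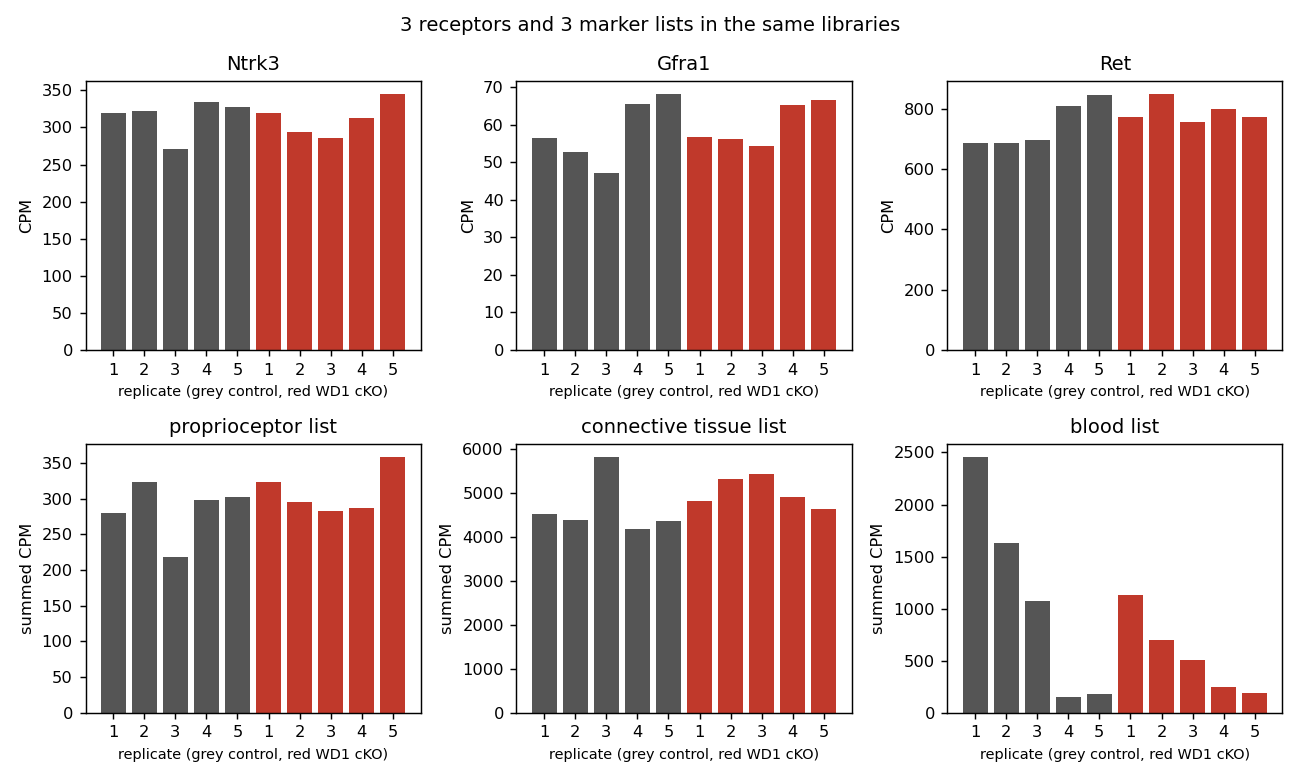
Upper row, CPM of *Ntrk3*, *Gfra1* and *Ret* in each library. Lower row, summed CPM of the proprioceptor, connective tissue and blood gene lists in the same libraries, with control in grey and *WD1* cKO in red. Control replicate 3 has the lowest *Ntrk3* (271 CPM) and the lowest proprioceptor sum (218 CPM) and the highest connective tissue sum (5827 CPM), and the blood sum is at most 242 CPM in replicates 4 and 5 of both genotypes.

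Of 7 ligand genes of these receptors, 4 passed the filter on low counts, all 4 with a level above control in *WD1* cKO embryos, and none reached an unadjusted p-value under 0.05. *Bdnf*, the ligand of TrkB, was at 23.4, 28.5, 14.2, 28.4 and 28.2 CPM in control replicates 1 to 5 and at 29.5, 28.0, 24.5, 26.5 and 32.1 CPM in *WD1* cKO replicates 1 to 5. Control replicate 3 was the lowest, and the log2 fold change of 0.19 (unadjusted p = 0.237, adjusted p = 1.00 in edgeR's quasi-likelihood test) was 0.053 without it. *Ntf3*, encoding the ligand of TrkC, was at 4.28 CPM in control replicate 3, at 10.1 to 14.5 CPM in the other control libraries and at 8.78 to 13.3 CPM in *WD1* cKO libraries. Its log2 fold change was 0.16 over all libraries and -0.035 without control replicate 3. *Ntrk3* and *Bdnf* were both lowest in that library (r = 0.88 over the deviations of the 10 libraries).

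*Gdnf* was counted 7 to 25 times and *Artn*, encoding artemin, 11 to 46 times per library, so that their fold changes are imprecise. The log2 fold changes were 0.39 (95% interval -0.15 to 0.93) for *Gdnf* and 0.16 (95% interval -0.63 to 0.95) for *Artn*. *Ntf5*, *Nrtn* and *Pspn*, encoding the ligands NT4, neurturin and persephin, had at most 17 counts in a library and were not tested.

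Of 18 genes for co-receptors and modulators, 17 were tested, 11 lower and 6 higher in *WD1* cKO embryos. The adjusted test called none of them, and 3, all lower, had an unadjusted p-value under 0.05, which 2.38% of the genes tested had in that direction. They were *Sorcs3*, of the sortilin family, and *Rtn4r* and *Lingo1*, whose products form a receptor complex with p75. *Sorcs3* was at 16.5, 14.7, 15.9, 16.2 and 14.9 CPM in control replicates 1 to 5 and at 13.9, 13.7, 13.7, 13.1 and 14.6 CPM in *WD1* cKO replicates 1 to 5, and its groups did not overlap, as in 0.566% of the genes tested in that direction. Its log2 fold change was -0.18 (unadjusted p = 0.00647, adjusted p = 1.00 in the same edgeR test). *Rtn4r* was at 33.7 to 39.1 CPM in control and 31.4 to 33.8 CPM in *WD1* cKO libraries, a log2 fold change of -0.16 (unadjusted p = 0.00588, adjusted p = 1.00), and 4 of its 5 *WD1* cKO libraries were below every control library. *Lingo1* was at 139 ± 9.48 and 125 ± 8.20 CPM (SD, n = 5 each), a log2 fold change of -0.15 (unadjusted p = 0.0142, adjusted p = 1.00), and of -0.11 without control replicate 3, where it was at 156 CPM.

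All 28 genes for adaptors and signalling proteins behind the receptors were tested, 14 lower and 14 higher in *WD1* cKO embryos, and the adjusted test called none of them. The 2 with an unadjusted p-value under 0.05 were higher, a direction in which 2.12% of the genes tested had one. *Shc4*, of the Shc adaptor family, was at 31.8, 35.0, 29.1, 31.4 and 30.8 CPM in control replicates 1 to 5 and at 35.4, 37.4, 37.3, 34.9 and 35.6 CPM in *WD1* cKO replicates 1 to 5. In *Shc4*, 4 of the 5 *WD1* cKO libraries were above every control library, and the log2 fold change was 0.19 (standard error 0.050, unadjusted p = 0.00226, adjusted p = 0.915 in the same edgeR test). It passed the study's cut-off. *Dok6*, encoding an adaptor of RET, was at 60.3 ± 3.74 and 64.3 ± 0.733 CPM (SD, n = 5 each), a log2 fold change of 0.094 (unadjusted p = 0.0435, adjusted p = 1.00). Its unadjusted p-value was under 0.05 in 6 of 18 alternative fits.

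Of 11 target genes of receptor signalling, 7 were lower and 4 higher in *WD1* cKO embryos. In this fit *Etv4*, a transcription factor of the ETS family, was the 1 gene of the list with an unadjusted p-value under 0.05. Its p-value stayed under 0.05 in 11 of 18 alternative fits. It was at 31.2 ± 3.38 and 27.6 ± 2.04 CPM (SD, n = 5 each), a log2 fold change of -0.18 (unadjusted p = 0.0348, adjusted p = 1.00 in edgeR's quasi-likelihood test), and of -0.15 without control replicate 3. All 4 genes for convertases that process the neurotrophin precursors were lower, from -0.24 to -0.020 on the log2 scale, none with an unadjusted p-value under 0.05. Over these 5 lists, 64 of 68 genes were tested, 36 lower and 28 higher, with a median log2 fold change of -0.014.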

How the data were processed

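Stranded mRNA libraries of embryonic DRG, 5 per genotype, were sequenced. Per the submitters' processing notes, bcl2fastq 2.20.0.422, STAR 2.7.8a, featureCounts 2.0.1 and GRCm39 were used, and the authors deposited the read counts per gene of each library, not normalized. The strand setting and the handling of multimapping reads are not given in the sources used here. Symbols, chromosomes and exon lengths came from the GENCODE annotation of GRCm38, which matched 52081 of 55414 identifiers. Since the builds differ, no coordinates are given.

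The filter asked for 10 or more counts in 5 or more libraries. TMM scaling and the quasi-likelihood test on genotype alone were run in edgeR 4.0.16 (R 4.3.3), and p-values were adjusted after Benjamini and Hochberg over 17490 genes. Exact permutation tests were two-sided, on log2 ratios of counts or on log2 CPM (prior count 1). The script was tested on simulated data. No pair of libraries of a group was within sampling noise of each other (chi-square over degrees of freedom 4.33 or more), and each library is 1 replicate.

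The receptors and the lists were chosen with earlier results of these data known. The genes named are the receptors, their ligands, genes of the pathway lists with an unadjusted p-value under 0.05, the genes most correlated with each receptor (the leading 3 were searched and the top gene is named), *Dach1*, and some marker genes. Alternatives were DESeq2's size factors, DESeq2 1.42.0 with its Wald test, no filter, the replicate number as a block, *Xist* as a covariate, robust dispersions, replicates 1 to 3 or 4 and 5 alone, each library left out, and other transcript lengths. The APPRIS principal transcript and the interaction for replicate numbers were added after the data were seen. Some genes of these pathways are not reported here.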

Additional observations from a re-analysis of the deposited data

Results flagged for a closer look

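*Ntrk3* in control replicate 3 was at 271 CPM, while the other control libraries were at 320.0 to 335 CPM, a gap that is large against the range of the group. It was the 1 such library in 26 groups of 5 that were examined, where chance alone gives 1.30. The same library had the lowest *Bdnf* (14.2 CPM), *Ntf3* (4.28 CPM), *Gfra1* (47.1 CPM) and *Pvalb* (36.9 CPM) and the highest *Ntrk2* (236 CPM) of the control libraries. Its summed spinal cord genes were at 15.2 CPM, against at most 0.483 CPM in the other control libraries, and their part in these values was not tested.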

How the results depend on the processing

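No receptor had an adjusted p-value under 0.05 in any of the 18 alternatives, and the lowest was 0.393, for *Ntrk2* with the replicate number as a block. *Ntrk2* was lower and had an unadjusted p-value under 0.05 in all 18, with log2 fold changes from -0.25 to -0.14. *Gfra2* was higher in all 18, with such a p-value in 17, and *Ngfr* was lower in all 18, with one in 11. These fits reuse the same libraries or part of them, so agreement between them is not independent evidence. The number of receptors past the study's cut-off, 0 in the main test, was 2 without the filter (*Ntrk2* and *Gfra2*), 1 with DESeq2's Wald test, the replicate block, robust dispersions or replicates 4 and 5 alone (*Ntrk2*), 1 in replicates 1 to 3 alone (*Ret*), and 0 to 1 when each library was left out (*Gfra2* without control replicate 5, *Ntrk2* without *WD1* cKO replicate 1). Receptors with a small difference changed sign. In replicates 4 and 5 alone the log2 fold change was -0.076 for *Ret*, -0.016 for *Gfra1*, 0.0079 for *Gfra4* and -0.061 for *Sort1*. *Gfra4* was at 0.00041 with *Xist* as a covariate, and *Sort1* at -0.0014 with DESeq2's size factors and -0.0016 with its Wald test. With each library left out, the ranges were -0.065 to 0.013 for *Ntrk3*, -0.021 to 0.11 for *Gfra1*, -0.023 to 0.022 for *Sort1*, -0.035 to 0.32 for *Ntf3* and -0.071 to 0.53 for *Artn*, and *Artn* was at -0.013 in replicates 1 to 3. The cause was not tested. Over all genes, the adjusted test called 7, DESeq2's Wald test 19, and the other fits 4 with *Xist*, 3 in replicates 1 to 3, 2 in replicates 4 and 5, and 3 to 6 with each library left out. Past the study's cut-off were 67 genes, 78 with DESeq2's Wald test, 128 without the filter, 133 with the block and 133 in replicates 4 and 5. Unadjusted p-values under 0.05 numbered 787, 1496 without the filter and 1241 with the block.

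Same-numbered libraries did not deviate together throughout (r from 0.040 to 0.39). Of 5 numbers, 3 had their highest r with their own number, so the numbers were not taken as pairs. The replicate numbers still carried structure. The first principal component of the deviations from the group means held 31.1% of their variance. It was at -0.41 to -0.049 in replicates 1 to 3 and at 0.34 to 0.39 in replicates 4 and 5, over both genotypes. The main test on genotype alone does not model this split. With the replicate block *Ntrk2* was at -0.19 (unadjusted p = 0.00154 in edgeR's quasi-likelihood test). For *Ntrk2* to *Ret* and *Ntrk2* to *Ntrk3*, the ratio was lower in *WD1* cKO embryos for 5 of 5 numbers. For *Ntrk3* to *Ret* it was lower for 4 of 5. An exact sign permutation with the numbers as pairs gave p = 0.0625, 0.0625 and 0.375, in this order, where 0.0625 is the smallest possible. The labels do not give such pairs, so these p-values rest on an assumption. With each library left out, the log2 differences of these ratios ranged from -0.33 to -0.22, from -0.21 to -0.082 and from -0.15 to -0.058, respectively. Per kb of the longest or the APPRIS principal transcript, *Ntrk2* ranked 5, *Sort1* 6 and *Ntrk3* 7, and *Gfra1* ranked 8 or 9, in this order, with *Gfra4* at 8 for the principal transcript. With each library left out, the rank was 6 to 8 for *Ntrk2*, 7 to 8 for *Ntrk3* and 6 to 7 for *Gfra1*. Few reads limit *Gdnf* and *Artn*, and kept *Ntf5*, *Nrtn* and *Pspn* from being tested.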
